A study of Mus musculus with 16 samples.

Results

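The insulin-like growth factor (IGF) genes described here are the ligands Igf1 and Igf2, the receptors Igf1r and Igf2r, and the binding proteins Igfbp2, Igfbp3, Igfbp4, Igfbp5, Igfbp6 and Igfbp7. They are 10 of the 21671 genes in the table, and all 10 symbols were found. The family was selected on the RPKM of Igfbp5, which differed strongly between groups, so the values of Igfbp5 are given as a description with no test, and the other 9 genes were taken by name. Of the 10, 8 reached at least 1 RPKM (reads per kilobase of gene, scaled to the size of the library) in at least 2 libraries. Apart from Igfbp5 that leaves 7 members tested, while Igfbp3 and Igf2 stayed under the minimum.

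The cells were mouse embryonic fibroblasts starved of serum before their RNA was taken, and every group expressed MycER, a fusion of Myc with a hormone-binding domain that 4-hydroxytamoxifen (OHT) activates. The population labelled YAP2S also expressed a form of YAP, which activates genes together with TEAD factors, whose serines 127 and 381, targets of the restraining LATS kinases, were changed to alanine. Each population was sampled untreated, with the ROCK inhibitor Y27632 at 50 µM (Y27), with OHT (400 nM), and with both, which gives 8 groups of 2 libraries named MycER, MycER Y27, MycER OHT, MycER OHT Y27, YAP2S, YAP2S Y27, YAP2S OHT and YAP2S OHT Y27. The labels do not say whether the 2 libraries of a group came from separate cultures, so p-values measure only the spread between these libraries, which may be technical. They also do not say which promoter drives either transgene or whether a population is 1 clone.

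IGF1 and IGF2 are secreted growth factors that signal through the IGF1 receptor, a tyrosine kinase that activates the PI3-kinase and Ras branches. The IGF2 receptor, also the cation-independent mannose 6-phosphate receptor, takes up IGF2 for degradation and carries lysosomal enzymes. IGF-binding proteins hold the ligands outside the cell and can lower or prolong their action until proteases cut them, and fibroblasts secrete several of them into the medium.

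All 10 members had an entry among the RefSeq promoter windows, 14 windows in all, each of the 250 bases before a gene start in build GRCm38.p6. The windows of Igfbp5, Igfbp2 and Igf2r are printed because Igfbp5 led to the choice of the family, Igfbp2 differed most between the populations and Igf2r resembled Igfbp5 most among the members, and because each holds a motif searched. Capitals mark the E-box CACGTG, to which Myc can bind and which reads the same on both strands, and the TEAD motif CATTCC, searched on both strands. The 2 motifs do not overlap in these windows.
Igfbp5, chr1:72874866-72875115, minus strand: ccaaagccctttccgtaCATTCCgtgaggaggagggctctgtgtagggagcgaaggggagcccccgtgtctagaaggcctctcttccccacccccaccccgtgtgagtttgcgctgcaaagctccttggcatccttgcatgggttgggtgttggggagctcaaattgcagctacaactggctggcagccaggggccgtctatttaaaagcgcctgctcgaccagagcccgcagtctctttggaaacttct
Igfbp2 (1 of its 2 windows), chr1:72824230-72824479, plus strand: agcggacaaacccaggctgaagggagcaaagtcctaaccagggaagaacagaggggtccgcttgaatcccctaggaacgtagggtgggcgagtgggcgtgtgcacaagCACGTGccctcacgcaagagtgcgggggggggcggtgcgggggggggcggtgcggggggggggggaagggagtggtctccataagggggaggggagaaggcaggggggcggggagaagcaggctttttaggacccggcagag
Igf2r, chr17:12769707-12769956, minus strand: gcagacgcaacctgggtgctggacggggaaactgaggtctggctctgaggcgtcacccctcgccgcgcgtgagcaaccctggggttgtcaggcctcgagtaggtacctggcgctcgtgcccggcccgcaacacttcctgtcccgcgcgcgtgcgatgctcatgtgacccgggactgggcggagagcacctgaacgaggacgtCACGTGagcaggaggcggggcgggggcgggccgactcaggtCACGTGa
The Igfbp5 window holds CATTCC, and no CACGTG, at -233 from the start. The Igfbp2 window holds CACGTG at -142, and the Igf2r window holds it at -48 and at -7. Over the members, 2 of the 14 windows held CACGTG and 4 held the TEAD motif, against 6.02% and 12.6% of all 32851 windows. The other 3 windows with the TEAD motif belong to Igf2. A match describes these letters and is not a site of binding or a cause. Igfbp2 and Igfbp5 are neighbours on the same chromosome with 0 genes listed between them, and they lie on opposite strands.

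Depth ran from 1763000 to 15707000 reads assigned to genes, an 8.91-fold range. MycER replicate 1 was the shallowest library, followed by the 2 libraries labelled MycER OHT Y27. The libraries treated with OHT went against their population labels. Bex1, used here to tell the populations apart, lay between 0 and 0.49 RPKM in the 4 MycER libraries without OHT and between 16 and 20 in the 4 YAP2S libraries without OHT. It lay between 7.49 and 19.8 in the 4 libraries labelled MycER with OHT, and between 0.123 and 1.01 in the 4 labelled YAP2S with OHT. Ctgf, a target of YAP, went from 171 and 139 RPKM in MycER to 11.3 and 14 in MycER Y27. In YAP2S it went from 94.8 and 93.1 to 64.3 and 60.6 with Y27. It was 67.1 and 60.8 under the label MycER OHT but 145 and 155 under MycER OHT Y27. Under YAP2S OHT it was 103 and 118, and under YAP2S OHT Y27 17.8 and 16. Under the label MycER with OHT, Ctgf was thus higher with Y27, unlike in the other pairs. Whether labels of population or of Y27 were exchanged was not tested. Groups with OHT are therefore named as labelled, the comparisons without OHT come first, and the average of OHT over 8 against 8 libraries does not depend on which OHT library has which population label. Yap1 overlapped between MycER (17 and 26.1 RPKM) and YAP2S (22.3 and 25.3), and the files do not say whether the transgene was counted there. Of 11 fibroblast markers 8 passed the filter, led by Vim at a mean of 182 RPKM, while 0 of 4 endothelial markers, 1 of 5 epithelial markers and 2 of 6 macrophage markers did. The summed level of the fibroblast markers ran from 479 RPKM in the group labelled MycER OHT to 1206 in MycER. The former group holds the deepest library and the latter the shallowest. The highest value of any gene was 118.9 RPKM in the deepest library and 662.6 in the shallowest. Depth and marker level cannot be told apart in these sums. Of 6 bone and cartilage markers 5 passed, led by Sox9 at 21.1 RPKM, with sums from 38.2 to 71.9. Of 5 neural markers 2 passed, led by Tubb3 at 40.8 RPKM, and 3 had a mean under 1 RPKM. Of 4 adipocyte markers 2 passed, and of 5 skeletal muscle markers 1. The part of these markers in the results was not tested.

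Across the 8 groups, 6 of the 7 members tested passed the F test of limma, beside 72.7% of all genes. Igf1 had the largest F (42.9, adjusted p = 8.43e-06) and Igf1r did not pass (adjusted p = 0.0739). The plot of RPKM by library shows each member.

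**Figure D1:**
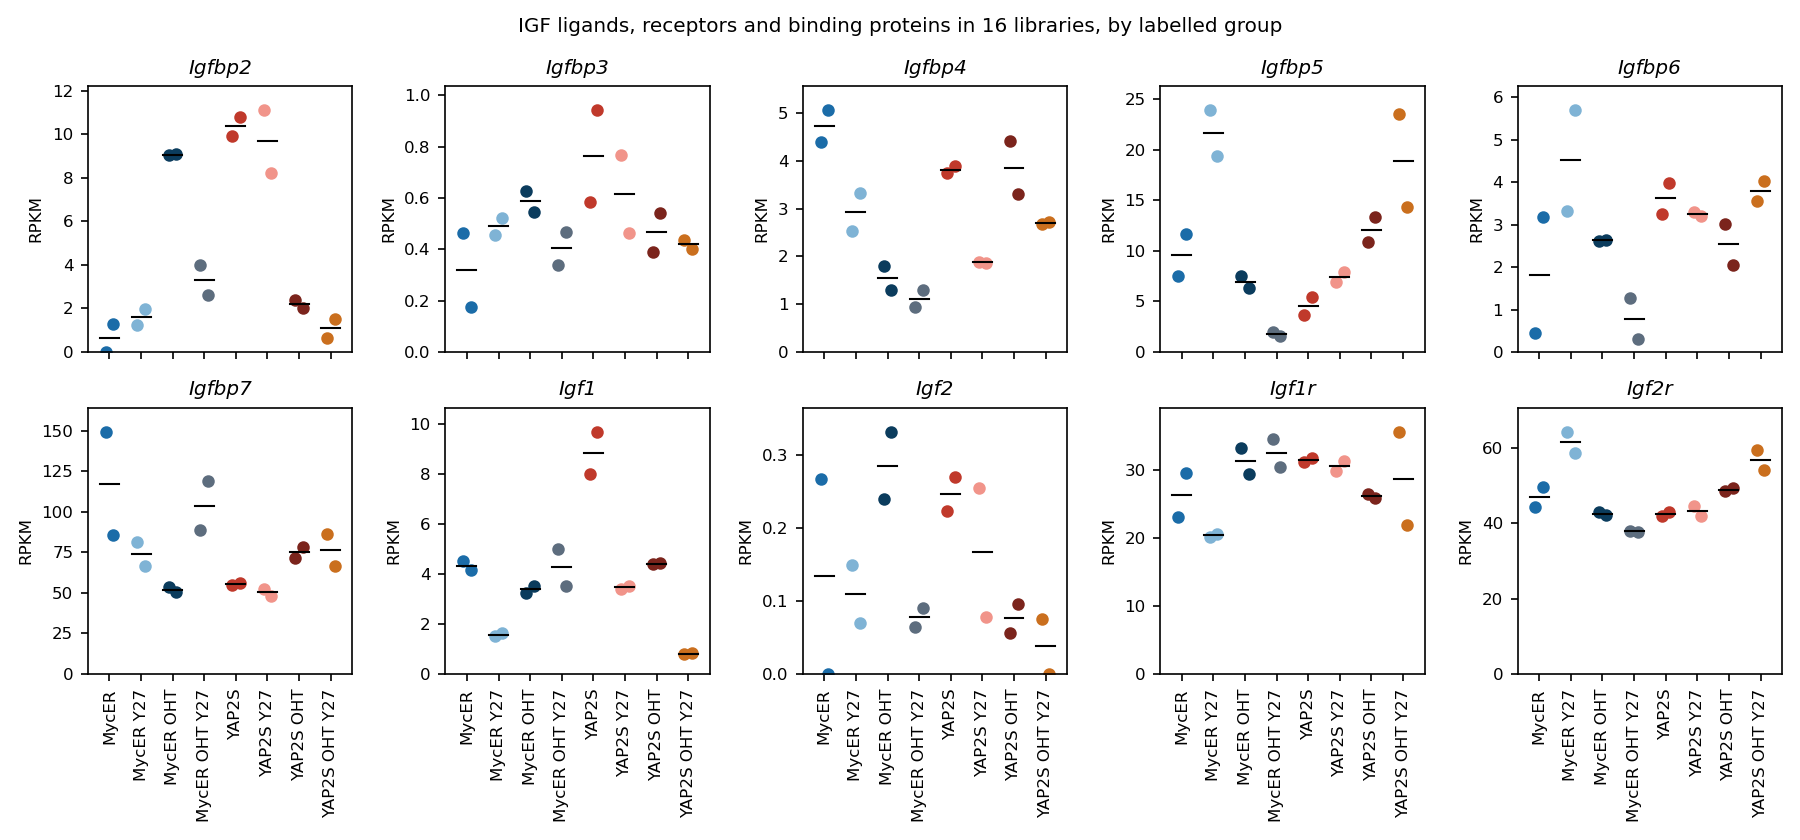
RPKM (vertical axis, a scale for each gene) of the 10 members in the 2 libraries of each labelled group, with replicate 1 on the left and the group mean as a line. Igfbp5 is highest in MycER Y27 (23.9 and 19.4 RPKM) and lowest in the libraries labelled MycER OHT Y27 (1.98 and 1.56), Igfbp2 is high in YAP2S, YAP2S Y27 and the libraries labelled MycER OHT, and Igfbp3 and Igf2 stay under 1 RPKM.

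Igf1 RNA was lower with Y27 in both populations. In MycER the libraries held 4.5 and 4.14 RPKM and in MycER Y27 1.51 and 1.62. In YAP2S they held 7.98 and 9.66, and in YAP2S Y27 3.39 and 3.52. The Y27 libraries were thus below both untreated libraries of their own population. The change was -1.05 ± 0.16 (SE, log2 of RPKM + 1) in MycER (limma, adjusted p = 0.000901) and -1.14 ± 0.16 in YAP2S (adjusted p = 0.00602). The change in MycER passed in every alternative and without any 1 library. The change in YAP2S did not pass when only the 8 libraries without OHT were fitted (adjusted p = 0.0561), or without YAP2S replicate 1 (0.0506), YAP2S replicate 2 (0.15), YAP2S Y27 replicate 1 (0.11) or YAP2S Y27 replicate 2 (0.0898), at changes of -1.01 to -1.26. The difference between both responses was -0.08 ± 0.22 (adjusted p = 0.899), and its sign turned at a pseudocount of 0.1 (0.09), after quantile normalization (0.19), after cyclic loess (0.13) and in voom (0.19).

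Igf1 was also higher in YAP2S than in MycER, by 0.88 ± 0.16 without drug (adjusted p = 0.00451) and by 0.80 ± 0.16 with Y27 (adjusted p = 0.0056). The untreated difference did not pass after quantile normalization (0.42, adjusted p = 0.102) or without YAP2S replicate 2 (0.76, adjusted p = 0.053). The difference with Y27 did not pass without MycER Y27 replicate 1 (0.77, adjusted p = 0.0567) or YAP2S Y27 replicate 2 (0.78, adjusted p = 0.062). Among the libraries treated with OHT, Igf1 was 3.25 and 3.51 RPKM under the label MycER OHT, 5 and 3.51 under MycER OHT Y27, 4.39 and 4.43 under YAP2S OHT, and 0.778 and 0.853 under YAP2S OHT Y27. The last group was the lowest of the 8 and overlapped with no other. Between the groups labelled YAP2S OHT Y27 and YAP2S OHT, Igf1 fell by 1.58 ± 0.16 on the log2 scale (adjusted p = 7.17e-05), whereas between those labelled MycER OHT Y27 and MycER OHT the change was 0.25 ± 0.16 (adjusted p = 0.213). The interaction of OHT and Y27 within the label MycER was 1.30 ± 0.22 (adjusted p = 0.000723). Igf1 was also lower in the group labelled YAP2S OHT than in YAP2S (-0.86 ± 0.16, adjusted p = 0.00459), a call lost without YAP2S replicate 2 (-0.73, adjusted p = 0.0756). The pairs with Y27 went opposite ways, with Igf1 higher under the label MycER OHT Y27 than in MycER Y27 (1.02 ± 0.16, adjusted p = 0.000255) and lower under YAP2S OHT Y27 than in YAP2S Y27 (-1.30 ± 0.16, adjusted p = 0.000196). Averaged over 8 against 8 libraries and thus over pairs of both signs, Igf1 fell with OHT by 0.35 ± 0.08 (adjusted p = 0.00539), with values that overlapped between the treated (0.778 to 5 RPKM) and untreated (1.51 to 9.66) libraries. The average, the interaction and the fall from YAP2S OHT to YAP2S OHT Y27 as labelled passed in every alternative and without any 1 library. In bulk RNA, fewer cells of a kind and less RNA per cell cannot be told apart. As a description over 16 libraries that share these groups, Igf1 followed Ctgf (r = 0.81).

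Igf2, the fetal ligand, was barely detected. It had between 0 and 19 reads per library, at most 0.332 RPKM, and every group overlapped with its neighbour in the order of means. The 2 libraries with 0 reads, MycER replicate 2 and the library labelled YAP2S OHT Y27 replicate 2, allow up to 0.1 and 0.0694 RPKM, the level of 3 reads at their depth. H19, the imprinted neighbour of Igf2, was also low, with group means from 0.189 RPKM in MycER to 1.18 in YAP2S.

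Igf1r, the signalling receptor, varied little. Its group means spanned 1.6-fold, from 20.3 RPKM in MycER Y27 to 32.4 in the group labelled MycER OHT Y27. MycER Y27 held 20.1 and 20.6 RPKM, the lowest of the 16 libraries, against 21.8 to 35.5 elsewhere, and no other pair of neighbouring groups was apart. The 2 libraries labelled YAP2S OHT Y27 differed most, at 35.5 and 21.8. With replicate 1 of that group left out the F test passed (adjusted p = 0.00317), as it did without its replicate 2 (0.00288) or without MycER replicate 2 (0.0404). Igf1r was higher in the group labelled MycER OHT Y27 than in MycER Y27 by 0.65 ± 0.18 (adjusted p = 0.0111). That call was lost without the library labelled MycER OHT Y27 replicate 1 (0.56, adjusted p = 0.0714) or MycER Y27 replicate 1 (0.63, adjusted p = 0.0506). The difference between YAP2S Y27 and MycER Y27, 0.57 ± 0.18, missed the threshold (adjusted p = 0.053) and passed when only the 8 libraries without OHT were fitted (adjusted p = 0.0281).

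Igf2r, the clearance and lysosomal sorting receptor, was the most abundant receptor per kilobase, and its replicates lay close together, with SDs of 0.136 to 3.95 RPKM over the 8 groups. Without OHT it was 44.3 and 49.5 RPKM in MycER, 64.2 and 58.7 in MycER Y27, 41.8 and 42.9 in YAP2S, and 44.7 and 41.8 in YAP2S Y27. MycER Y27 thus lay above all the others. Igf2r rose with Y27 in MycER by 0.38 ± 0.09 (adjusted p = 0.0145), a call lost in voom on recovered reads (0.25, adjusted p = 0.111) and without MycER replicate 1 (0.30, adjusted p = 0.0794) or MycER Y27 replicate 1 (0.32, adjusted p = 0.0949). In YAP2S the change was 0.03 ± 0.09 (adjusted p = 1), and the difference between the responses did not pass (-0.35 ± 0.13, adjusted p = 0.295). With Y27 Igf2r was lower in YAP2S than in MycER, by -0.50 ± 0.09 (adjusted p = 0.00385), a call lost without MycER Y27 replicate 1 (-0.43, adjusted p = 0.0535) or YAP2S Y27 replicate 2 (-0.45, adjusted p = 0.0603).

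In the libraries with OHT, Igf2r stood at 42.9 and 42.2 RPKM under the label MycER OHT, 38 and 37.8 under MycER OHT Y27, 48.5 and 49.3 under YAP2S OHT, and 59.4 and 54.2 under YAP2S OHT Y27. The group labelled MycER OHT Y27 was the lowest of the 8 and the one labelled YAP2S OHT Y27 was second to MycER Y27, with which it overlapped. The first was below MycER Y27 by -0.68 ± 0.09 (adjusted p = 9.74e-05), and the second was above the first by 0.57 ± 0.09 (adjusted p = 0.000472). Both calls passed in every alternative and without any 1 library. Over the 16 libraries Igf2r ran against Ctgf (r = -0.81) and against Bex1 (r = -0.76), as a description.

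Igfbp5, a binding protein that also attaches to extracellular matrix, spanned 12.2-fold between group means, with 24 to 1289 reads per library. Without OHT it was 7.46 and 11.7 RPKM in MycER, 23.9 and 19.4 in MycER Y27, 3.68 and 5.48 in YAP2S, and 6.89 and 7.94 in YAP2S Y27. It was higher with Y27 than without in both populations with no overlap, and lower in YAP2S than in MycER. The differences with Y27 were 1.12 ± 0.26 in MycER and 0.61 ± 0.26 in YAP2S on the log2 scale, given without a test. Without MycER replicate 1 or replicate 2 the former lay between 0.82 and 1.41.

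With OHT, Igfbp5 stood at 7.49 and 6.32 RPKM under the label MycER OHT, 1.98 and 1.56 under MycER OHT Y27, 10.9 and 13.3 under YAP2S OHT, and 23.5 and 14.3 under YAP2S OHT Y27. The lowest and the second highest group of the study were thus the 2 labelled with both drugs. In the order of means, the group labelled MycER OHT Y27 (1.77 ± 0.291, SD, n = 2) was apart from YAP2S (4.58 ± 1.27), and that group from MycER OHT (6.9 ± 0.829). Neighbours from MycER OHT to YAP2S OHT (12.1 ± 1.7) overlapped, and YAP2S OHT Y27 (18.9 ± 6.49) overlapped with MycER Y27 (21.6 ± 3.21) but not with the group below.

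Igfbp2, a binding protein with an integrin-binding sequence, was higher in YAP2S than in MycER. It was 0 and 1.3 RPKM in MycER, 1.22 and 1.95 in MycER Y27, 9.93 and 10.8 in YAP2S, and 11.1 and 8.23 in YAP2S Y27. All 4 YAP2S libraries were above all 4 MycER libraries. MycER replicate 1 had 0 reads, and at its depth 3 reads would be 1.3 RPKM, while MycER replicate 2 had 12 reads, with a 95% exact Poisson interval of 0.672 to 2.27 RPKM. The difference between populations was 2.90 ± 0.34 untreated (adjusted p = 0.000333) and 2.04 ± 0.34 with Y27 (adjusted p = 0.00183). Fitted on the 8 libraries without OHT alone, both passed (adjusted p = 0.0108 and 0.0189). The untreated difference passed in every alternative and without any 1 library, but was 2.30 without MycER replicate 1, which had 0 reads, and 3.50 without MycER replicate 2. The other did not pass at a pseudocount of 0.1 (2.55, adjusted p = 0.0692). Changes with Y27 were 0.76 ± 0.34 in MycER (adjusted p = 0.139, and 1.36 with 0.00367 without MycER replicate 2) and -0.10 ± 0.34 in YAP2S (adjusted p = 1).

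In the OHT libraries Igfbp2 went with Bex1 and against the population label. It was 9.03 and 9.09 RPKM under the label MycER OHT, 4.01 and 2.63 under MycER OHT Y27, 2.38 and 2.03 under YAP2S OHT, and 0.654 and 1.5 under YAP2S OHT Y27. Igfbp2 was higher in the group labelled MycER OHT than in MycER by 2.73 ± 0.34 (adjusted p = 0.0002), or by 2.13 without MycER replicate 1 and 3.33 without MycER replicate 2, and lower in the one labelled YAP2S OHT Y27 than in YAP2S Y27 by -2.37 ± 0.34 (adjusted p = 0.00058). It was also lower under the label YAP2S OHT than in YAP2S (-1.83 ± 0.34, adjusted p = 0.00441), a call lost at a pseudocount of 0.1 (-2.18, adjusted p = 0.125) and without the library labelled YAP2S OHT replicate 2 (-1.75, adjusted p = 0.0513). Averaged over 8 against 8 libraries the change with OHT was -0.18 ± 0.17 (adjusted p = 0.443), and it was 0.08 at a pseudocount of 0.1. Igfbp2 and Bex1 had r = 0.94 over 16 libraries, a description of libraries that fall into a high and a low cluster with those labelled MycER OHT Y27 between them, and the rank of Igfbp2 also went with depth (rho = 0.71).

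**Figure D2:**
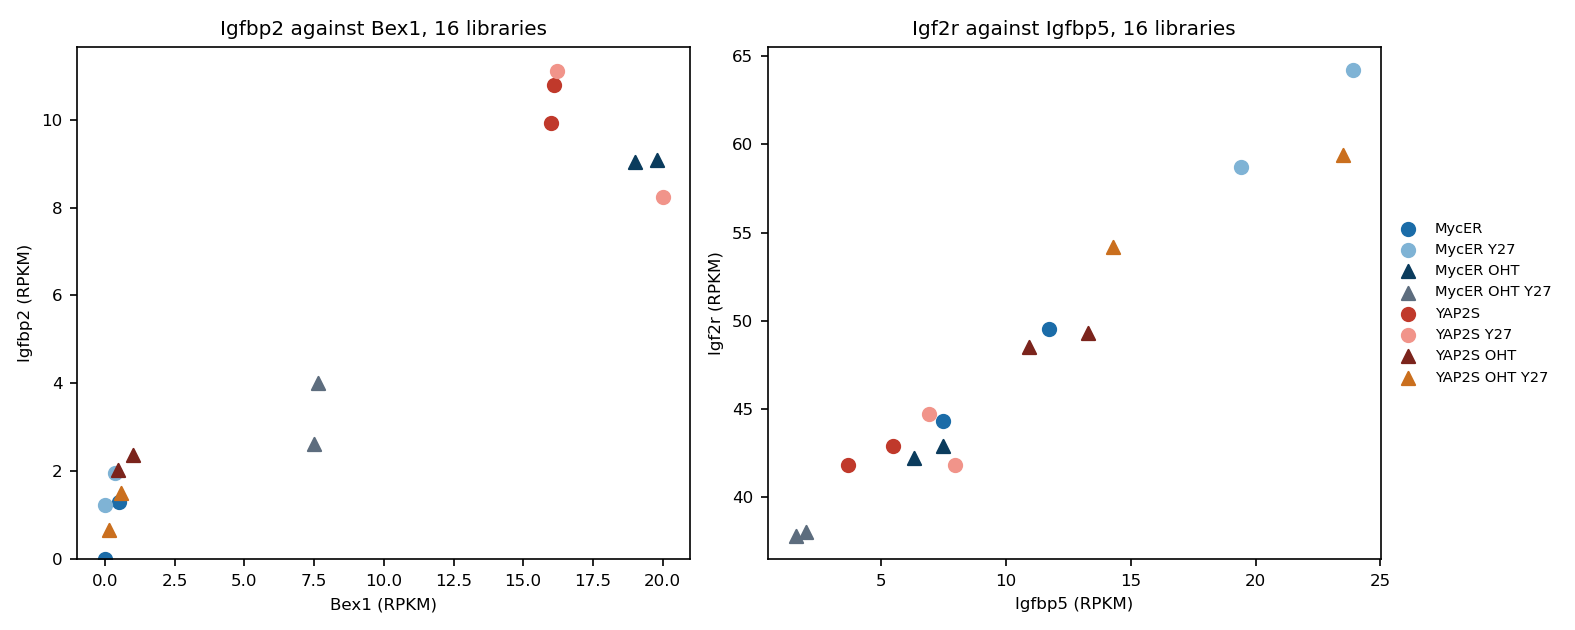
Left, Igfbp2 against Bex1, and right, Igf2r against Igfbp5, in RPKM, with a point for each of 16 libraries coloured by labelled group and triangles for OHT (the Igf2r axis does not start at 0). The libraries labelled MycER OHT (9.03 and 9.09 RPKM of Igfbp2) lie with those of YAP2S, and Igf2r follows Igfbp5 from 37.8 RPKM in a library labelled MycER OHT Y27 to 64.2 in MycER Y27 replicate 1.

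Igfbp4, which inhibits IGF action until the protease PAPP-A cuts it, fell with OHT on average. It was 4.39 and 5.06 RPKM in MycER, 2.54 and 3.32 in MycER Y27, 3.74 and 3.89 in YAP2S, and 1.89 and 1.87 in YAP2S Y27. With OHT it was 1.79 and 1.29 under the label MycER OHT, 0.933 and 1.29 under MycER OHT Y27, 4.42 and 3.3 under YAP2S OHT, and 2.68 and 2.71 under YAP2S OHT Y27. The 4 libraries labelled MycER with OHT were the lowest of the 16. The average change with OHT was -0.43 ± 0.09 (adjusted p = 0.00286), and from MycER to MycER OHT as labelled it was -1.18 ± 0.17 (adjusted p = 0.000508). Both passed without any 1 library and in every alternative that could test them, where the filter at 5 RPKM leaves out Igfbp4. Under the labels YAP2S OHT and YAP2S, however, the change was 0.00 ± 0.17 (adjusted p = 0.994). From YAP2S Y27 to YAP2S OHT Y27 as labelled it was 0.36 ± 0.17 (adjusted p = 0.19), with libraries that did not overlap. Y27 libraries without OHT lay below the untreated ones of their population. Igfbp4 fell in MycER by 0.55 ± 0.17 (adjusted p = 0.0467), and in YAP2S the change was -0.74 ± 0.17 (adjusted p = 0.0907). The call in MycER was lost without any 1 of 12 libraries, all but the 4 labelled MycER OHT Y27 or YAP2S OHT Y27 (changes of -0.69 to -0.40 over all 16), on the 8 libraries without OHT (adjusted p = 0.0586), with the replicate block (0.0644), with no filter (0.076) and at a pseudocount of 0.1 (0.0773).

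Igfbp6, which binds IGF2 in preference to IGF1, had few reads, between 1 and 75 per library. Without OHT it was 0.44 and 3.18 RPKM in MycER, 3.33 and 5.7 in MycER Y27, 3.26 and 3.98 in YAP2S, and 3.3 and 3.21 in YAP2S Y27. With OHT it was 2.62 and 2.64 under the label MycER OHT, 1.28 and 0.296 under MycER OHT Y27, 3.02 and 2.05 under YAP2S OHT, and 3.56 and 4.03 under YAP2S OHT Y27. The lowest values were those of MycER replicate 1 and the libraries labelled MycER OHT Y27, the 3 shallowest libraries, with 1, 6 and 1 reads. Igfbp6 passed the F test (adjusted p = 0.0351) but not at a pseudocount of 0.1, with no filter, after cyclic loess or in voom (0.0567 to 0.0787), nor without any 1 of 10 libraries, among them the one labelled MycER OHT Y27 replicate 2 (0.156). It was lower in the group labelled MycER OHT Y27 than in MycER Y27 by -1.65 ± 0.41 (adjusted p = 0.00565), a call lost without the library labelled MycER OHT Y27 replicate 2 (-1.24, adjusted p = 0.0655) or MycER Y27 replicate 2 (-1.33, adjusted p = 0.058).

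Igfbp7, a matrix-associated protein that binds IGFs weakly, was the most abundant binding protein per kilobase. It was 149 and 85.5 RPKM in MycER, 81.5 and 66.4 in MycER Y27, 54.7 and 56.1 in YAP2S, and 52.5 and 48.1 in YAP2S Y27. With OHT it was 53.4 and 50.4 under the label MycER OHT, 88.4 and 119 under MycER OHT Y27, 71.5 and 78.4 under YAP2S OHT, and 86.4 and 66.5 under YAP2S OHT Y27. The 3 highest values came from the 3 shallowest libraries, and the rank of Igfbp7 ran against depth (rho = -0.94, and -0.86 after quantile normalization). Reads of Igfbp7 reached 0.9 per base of the gene, while its read count varied only from 318 to 1092. Differences in depth and in Igfbp7 cannot be told apart where they coincide. Igfbp7 was lower in YAP2S than in MycER by -1.01 ± 0.23 (adjusted p = 0.00935), which became -0.47 after quantile normalization (adjusted p = 0.0319) and -0.56 after cyclic loess (adjusted p = 0.0483). It was lost without MycER replicate 1 (-0.62, adjusted p = 0.0786), YAP2S replicate 1 (-0.99, adjusted p = 0.0678) or YAP2S replicate 2 (-1.03, adjusted p = 0.0573). From MycER to MycER OHT as labelled it was -1.11 ± 0.23 (adjusted p = 0.00296) and -0.58 after quantile normalization (adjusted p = 0.00521).

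**Figure D3:**
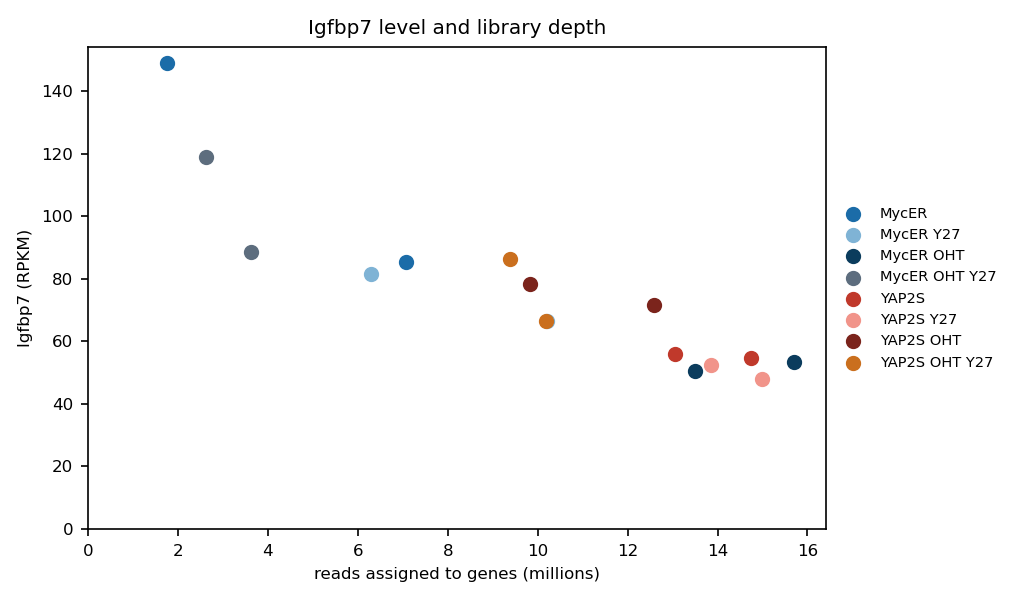
Igfbp7 in RPKM against library depth in reads assigned to genes, with a point for each of 16 libraries coloured by labelled group. The level runs from 149 RPKM in the library with 1763000 reads to the 6 lowest values (48.1 to 56.1) in the 6 deepest libraries.

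Igfbp3, the main carrier of IGFs in serum, had 2 to 30 reads per library and at most 0.942 RPKM, and 1 pair of neighbouring groups in the order of means did not overlap. It was not tested.

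The counts of members called in each comparison are read beside the share of all 13028 genes called there. With Y27, 3 of 7 members were called in MycER (Igf2r up, Igfbp4 and Igf1 down) beside 17.9% of all genes, 13.4% up and 4.47% down, and 1 of 7 in YAP2S (Igf1) beside 0.668%. Between populations, 3 were called untreated (Igfbp2 and Igf1 up, Igfbp7 down) beside 33.3%, 24.8% up and 8.43% down, and 3 with Y27 (Igfbp2 and Igf1 up, Igf2r down) beside 16%, 10.6% up and 5.43% down. The first count was 1 without MycER replicate 1 or MycER Y27 replicate 1 and 5 without MycER replicate 2. Without YAP2S or YAP2S Y27 replicates 1 or 2, each in turn, the second was 0. The third was 1 without YAP2S replicate 2 and 2 without MycER or YAP2S replicate 1, and the fourth was 1 without MycER Y27 replicate 1 or YAP2S Y27 replicate 2 and 5 without either MycER library. The difference in the Y27 response between populations was called for 0 of 7 by limma and by voom, beside 0.568%, with 1 member (Igf2r) at an unadjusted p under 0.05. Without MycER replicate 2 that count was 4 (Igfbp2, Igfbp6, Igfbp7 and Igf2r).

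With OHT as labelled, 3 of 7 members were called in MycER (44.9% of all genes), 5 in MycER with Y27 (50.1%), 2 in YAP2S (13.8%) and 3 in YAP2S with Y27 (15%). With Y27 under OHT, 3 were called under the label MycER, Igfbp2 and Igfbp6 lower and Igfbp7 higher (46.9%), and 1, Igf1, under YAP2S (11.4%). That call of Igfbp6 (-1.08 ± 0.41, adjusted p = 0.0469) was lost without any 1 of 13 libraries (adjusted p of 0.0503 to 0.314) and with no filter, quantile or cyclic loess normalization, voom or the replicate block (0.0543 to 0.138). The call of Igfbp2 (-1.24 ± 0.34, adjusted p = 0.0109) was lost at a pseudocount of 0.1, after quantile normalization and without the libraries labelled MycER OHT replicate 1 (adjusted p = 0.0549) or MycER OHT Y27 replicate 2 (0.0919), and that of Igfbp7 (0.97 ± 0.23, adjusted p = 0.00503) without the latter (0.0577). The former count was 1 without the library labelled MycER OHT replicate 1 and 0 without MycER OHT Y27 replicate 2, and that for YAP2S was 2 without YAP2S OHT Y27 replicate 2. Between the populations as labelled under OHT, 2 were called without Y27 (11.1%), Igfbp2 and Igfbp4, and 5 with it (47%). The 2 became 0 without MycER OHT replicate 2 or YAP2S OHT replicate 1, 1 without MycER OHT replicate 1 or YAP2S OHT replicate 2, and 3 without MycER replicate 1 or 2. The 2 in YAP2S with OHT became 1 without YAP2S replicate 2 or YAP2S OHT replicate 2. The average of OHT called 2 (32.3%, 13% up and 19.3% down), Igfbp4 and Igf1, both lower, and this count was the same or 3 without any 1 library. The interaction of OHT and Y27 called 5 under the label MycER (51.4%) and 0 under YAP2S (0.445%), where 0 were at an unadjusted p under 0.05 and voom called 1. The median gene moved as well, by 0.24 from MycER to YAP2S, 0.22 from MycER to MycER OHT, 0.13 from MycER to MycER Y27 and -0.43 in the interaction under MycER, and relative to the median the fall of Igf1 with Y27 in MycER was -1.18.

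**Figure D4:**
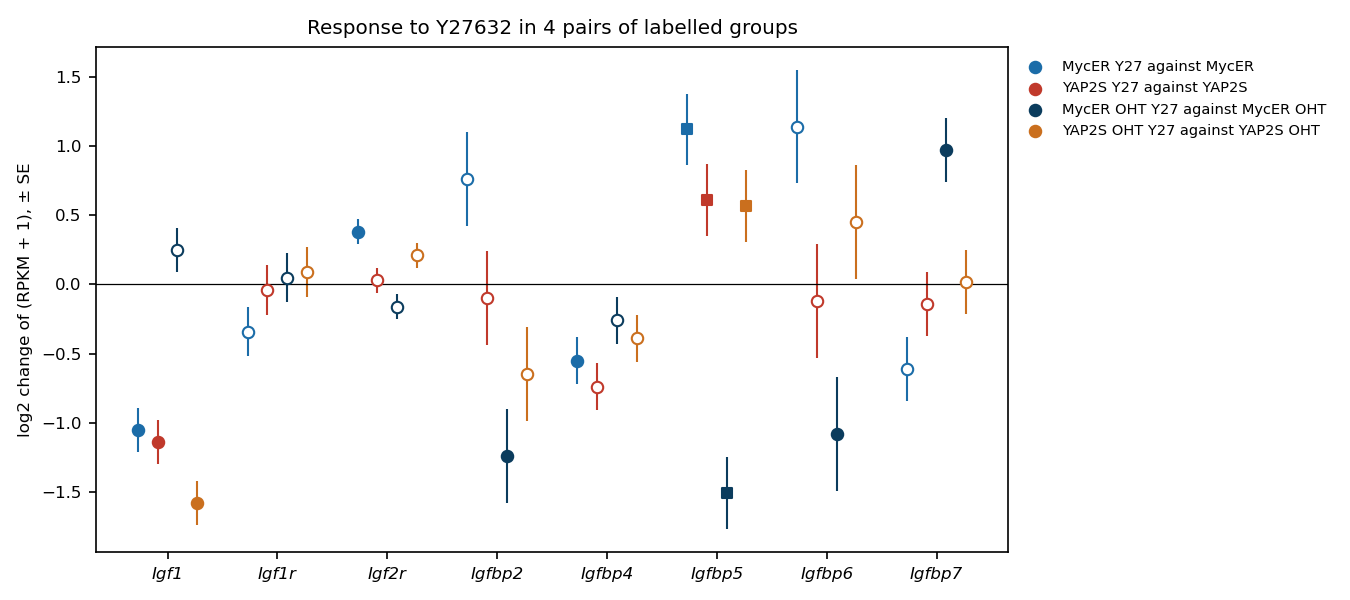
Log2 change of (RPKM + 1) with Y27 (vertical axis, bars of 1 SE) in the 4 pairs of labelled groups, filled circles for calls past an adjusted p of 0.05, open circles for the rest and squares for Igfbp5, which was not tested. Igf1 is lower with Y27 in 3 pairs (-1.05, -1.14 and -1.58) and not in the libraries labelled MycER OHT Y27 (0.25).

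The genes whose levels most resembled Igfbp5 were sought among 8000 genes with a mean of at least 10 RPKM, by Pearson r over 16 libraries on log2(RPKM + 1). Sept9, a septin of the cytoskeleton, came first (r = 0.973), then Napa (0.968), an adaptor in vesicle fusion, Tapbp (0.958), which loads peptides on MHC class I, Cspg4 (0.956), a cell surface proteoglycan, Mt2 (0.951), a metallothionein, and Pik3r2 (0.951), a regulatory subunit of PI3-kinase. Mt2 followed Igfbp5 from 41.6 RPKM in MycER Y27 to 4.54 under the label MycER OHT Y27. Among the members Igf2r was nearest, at rank 12 of the 8000 (r = 0.94). Opposite to Igfbp5 were Anln (r = -0.944), Lgals9 (-0.928) and Rrm1 (-0.918), of which Anln and Rrm1 serve cell division and nucleotide synthesis. In all, 56 genes were above 0.9 and 8 below -0.9, and the points share libraries and depth.

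Of 44 other genes of the pathway, all in the table, 36 passed the filter and 29 of them the F test, beside 72.7% of all genes. With Y27 in MycER 5 of the 36 rose and 3 fell, beside 13.4% of all genes up and 4.47% down. In YAP2S 0 were called by limma, beside 0.668%, with 2 at an unadjusted p under 0.05 and 1 called by voom. From MycER to YAP2S 11 were higher and 4 lower, beside 24.8% and 8.43% of all genes, at a median change of 0.20 against 0.24 for all genes. Of the receptor and substrate genes 7 of 8 passed, led by Shc1 (adjusted p = 0.000577), an adaptor to Ras, which ran from 48.5 RPKM under the label MycER OHT Y27 to 90.2 in MycER Y27. Irs1, Grb2 and Grb10 also passed (adjusted p of 0.00131 to 0.0059). Of the kinase branch 11 of 16 passed, among them Foxo3, Pik3cb, Tsc1 and Pik3r1 (adjusted p of 0.000116 to 0.000592). With Y27 in MycER, Foxo3, a transcription factor restrained by AKT, rose from 11.4 to 22.4 RPKM (log2 0.93 ± 0.16, adjusted p = 0.00204) and Tsc1, a brake on mTOR, from 8.66 to 17.5 (0.94 ± 0.13, adjusted p = 0.000443), while Pik3cb, a PI3-kinase catalytic subunit, fell from 12.7 to 6.93 (-0.79 ± 0.16, adjusted p = 0.0049).

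Of the proteases that cut binding proteins, their inhibitors and partners, 8 of 8 passed the F test, as did 72.7% of all genes. Pappa, the protease of Igfbp4, was 15.3 ± 0.0836 RPKM (SD, n = 2) in MycER and 18.4 ± 0.579 in MycER Y27, against 5.71 ± 0.557 in YAP2S and 6.92 ± 0.263 in YAP2S Y27. It was lower in YAP2S by -1.28 ± 0.13 (adjusted p = 0.000139), the opposite side from Igfbp2. Under OHT the label again ran the other way, with 7.04 and 3.44 RPKM as means under MycER OHT and MycER OHT Y27 and 15.8 and 16 under YAP2S OHT and YAP2S OHT Y27. Adamts1, a secreted metalloprotease, fell with Y27 in MycER from 126 to 52.6 RPKM (-1.24 ± 0.13, adjusted p = 6.72e-05) and was 97.5 and 96.9 in YAP2S and YAP2S Y27. The highest value of any gene was 124.5 and 137 RPKM in the YAP2S libraries and 128.9 and 118.8 in those of YAP2S Y27. These libraries were deeper than those of MycER and MycER Y27. Depth and Adamts1 level cannot be told apart in this contrast of populations. Prss23, a serine protease, fell with Y27 in MycER from 56.4 to 27 RPKM (-1.03 ± 0.18, adjusted p = 0.0021) and was 48.1 and 46.9 in YAP2S and YAP2S Y27. Htra1, which cleaves Igfbp5, ran from 17.5 RPKM under the label MycER OHT Y27 to 43.5 under YAP2S OHT Y27. Of the mRNA-binding and imprinted genes 3 of 4 passed beside the same share, Igf2bp1, Igf2bp2 and H19 (adjusted p of 0.00254 to 0.0234).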

How the data were processed

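RNA from serum-starved mouse embryonic fibroblasts was purified on spin columns, and libraries were made with a TruSeq kit without poly(T) selection. Tools named in the submitters' processing notes are featureCounts 1.4.5-p1, SAMtools and TopHat2 2.0.8 (also as TopHat), with build mm9. The annotation and the strand setting are not given in the sources used here. The deposited values are RPKM computed by the authors, a unit inferred from the values. The steps between low values gave back whole reads (within 0.01 read) for 18176 genes, which hold 99.68% of all nonzero values, and so the depths. The highest value in a library was 662.6 RPKM in the shallowest and 118.9 in the deepest.

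Values were set to log2(RPKM + 1), the fold scale of every change, with genes kept at 1 RPKM or more in at least 2 libraries (13028). All 16 libraries were fitted in limma 3.58.1 under R 4.3.3. The model had a coefficient for each group, left 8 residual degrees of freedom and let the prior variance depend on mean level. Tests were two-sided, and p was adjusted by Benjamini-Hochberg over all genes tested, threshold 0.05. Changes of low genes are understated by the pseudocount of 1. Comparisons that share a group share its errors. The design had 12 comparisons of 2 groups, an average of OHT, 3 interactions and an F test. Of these, only MycER Y27 against MycER and the false calls of the F test were tried on simulated reads. Changes were set there in MycER Y27 alone. Results were recomputed with 0.1 as pseudocount, without the filter, with a 5 RPKM filter, after quantile or cyclic loess normalization, by voom on recovered reads, with a replicate block, on the 8 libraries without OHT alone, and each library left out in turn, where a lone library is assumed to vary like the other groups. Intervals and the floor of 3 reads cover counting error only.

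Named are all 10 members, 6 genes most like and 3 most unlike Igfbp5 (predicted genes and RNAs under 200 bases left out), up to 4 genes of each pathway list with the smallest F test p, and Bex1 and Ctgf as a check of labels; Yap1, Vim, Sox9 and Tubb3 were added. Members and lists were chosen with earlier results of these data known. Python 3.11.15 with numpy 2.4.6, pandas 2.3.3, scipy 1.17.1 and matplotlib 3.10.9 did the rest.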

Additional observations from a re-analysis of the deposited data

Results flagged for a closer look

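The response to Y27 differed with OHT under the label MycER for 5 members by the interaction term of limma, beside 51.4% of all genes. The difference was -1.99 for Igfbp2 (adjusted p = 0.00469), -2.21 for Igfbp6 (adjusted p = 0.0076), 1.58 for Igfbp7 (adjusted p = 0.00185), 1.3 for Igf1 (adjusted p = 0.000723) and -0.55 for Igf2r (adjusted p = 0.00476). The median gene moved by -0.43 in this term. Relative to it Igf2r was only -0.12, while Igfbp2 was -1.57, Igfbp6 -1.79, Igfbp7 2.01 and Igf1 1.73. The term for Igf2r did not pass in voom on recovered reads (-0.17, adjusted p = 0.327). The other 4 passed without any 1 library and in every alternative that could test them, where the filter at 5 RPKM leaves out Igfbp6. Sizes moved with 1 library left out, from -2.59 to -1.39 for Igfbp2, -2.98 to -1.44 for Igfbp6 and 1.19 to 1.98 for Igfbp7. For these 3 both ends came without MycER replicate 2 or replicate 1, of which the latter is the shallowest library, with 0 reads of Igfbp2 and 1 of Igfbp6. MycER and the group labelled MycER OHT Y27, on the same side of the term, hold the 3 shallowest libraries. Igfbp7 ran against depth (rho = -0.94, and -0.86 after quantile normalization), so its term and depth cannot be told apart. The groups with OHT go against their population labels in Bex1 and Ctgf. Ctgf was also higher under the label MycER OHT Y27 (mean 150 RPKM) than under MycER OHT (63.9), unlike in the other pairs with Y27. The libraries of that pair differ in depth as well, which cannot be told apart from the Ctgf level. Whether labels of population or of Y27 were exchanged was not tested.

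Among the 8 members past the filter, in 25 further cases every library of the first contrast moved one way and every library of the second the opposite way. These differences were not tested, and values are log2 changes. How many of all genes move in this way was not counted, so the number of cases is not a result about the members. The values are not set relative to the median gene. Relative to it, signs stayed opposite except for Igf2r with Y27 under OHT (0.13 under the label MycER and 0.23 under YAP2S). Igf1r from MycER to YAP2S without OHT was only 0.02 relative to the median gene.
For OHT without Y27, from MycER first and from YAP2S second, the changes were 2.73 and -1.83 for Igfbp2, -1.11 and 0.43 for Igfbp7 and -0.14 and 0.20 for Igf2r. For OHT with Y27 in both arms, in the same order, they were 0.74 and -2.37 for Igfbp2, -0.89 and 0.36 for Igfbp4, -3.03 and 1.20 for Igfbp5, -1.65 and 0.17 for Igfbp6, 1.02 and -1.30 for Igf1 and -0.68 and 0.39 for Igf2r. For Y27 under OHT, under the label MycER first and YAP2S second, values came to -1.51 and 0.57 for Igfbp5, -1.08 and 0.45 for Igfbp6, 0.25 and -1.58 for Igf1 and -0.16 and 0.21 for Igf2r. Between the populations, without OHT first and with OHT as labelled second, the differences were 2.9 and -1.65 for Igfbp2, -0.25 and 0.93 for Igfbp4, -0.91 and 0.73 for Igfbp5, -1.01 and 0.52 for Igfbp7, 0.26 and -0.25 for Igf1r and -0.14 and 0.20 for Igf2r. Between the populations with Y27, again without and then with OHT, they came to 2.04 and -1.07 for Igfbp2, -0.44 and 0.81 for Igfbp4, -1.42 and 2.81 for Igfbp5, -0.34 and 1.48 for Igfbp6, 0.8 and -1.52 for Igf1 and -0.5 and 0.57 for Igf2r.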

How the results depend on the processing

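Of 41 calls of the members tested, 30 passed in every alternative other than leaving out 1 library, 19 were lost without at least 1 library, 20 passed throughout and 0 reversed. A filter at 5 RPKM leaves out Igfbp4 and Igfbp6. The count of members called moved by over 1.5 times in these cases, and smaller moves are not listed. Quantile, cyclic loess and voom gave 2 for Y27 in YAP2S (1 as reported), and the 8 libraries without OHT gave 0. Voom gave 5 for YAP2S Y27 against MycER Y27 (3 as reported), 5 for MycER OHT against MycER (3) and 1 for the interaction of OHT and Y27 under YAP2S (0). That filter gave 3 for MycER OHT Y27 against MycER Y27 (5), 3 for YAP2S OHT Y27 against MycER OHT Y27 (5), 1 for YAP2S OHT against MycER OHT (2) and 1 for the OHT average (2). A pseudocount of 0.1 gave 1 for YAP2S OHT against YAP2S (2) and 1 for YAP2S OHT against MycER OHT. Quantile normalization gave 2 for YAP2S OHT Y27 against YAP2S OHT (1). Except where named, the cause was not tested.

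Leaving out 1 library in turn, the count ran from 5 to 7 for the F test, 1 to 5 for MycER Y27 against MycER, 0 to 1 for YAP2S Y27 against YAP2S, 1 to 4 for YAP2S against MycER, 1 to 5 for YAP2S Y27 against MycER Y27, 3 to 4 for MycER OHT against MycER, 4 to 7 for MycER OHT Y27 against MycER Y27, 1 to 2 for YAP2S OHT against YAP2S, 2 to 4 for YAP2S OHT Y27 against YAP2S Y27, 0 to 3 for MycER OHT Y27 against MycER OHT, 1 to 2 for YAP2S OHT Y27 against YAP2S OHT, 0 to 3 for YAP2S OHT against MycER OHT, 4 to 6 for YAP2S OHT Y27 against MycER OHT Y27, 2 to 3 for the OHT average, and 0 to 4, 5 to 5 and 0 to 0 for the interactions of Y27 and population, OHT and Y27 under MycER, and OHT and Y27 under YAP2S.

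Values that changed sign had not passed the threshold. For MycER OHT Y27 against MycER OHT, Igfbp4 was 0.06 after quantile and 0.10 after cyclic loess normalization and Igf2r 0.07 in voom. For YAP2S OHT against MycER OHT, Igfbp6 was 0.11 and 0.10 in the same 2 normalizations. For the OHT average Igfbp2 was 0.08 at a pseudocount of 0.1. For the interaction of Y27 and population, Igfbp4 was 0.08 after quantile normalization, and Igf1 was 0.09 at a pseudocount of 0.1, 0.19 after quantile normalization, 0.13 after cyclic loess and 0.19 in voom. Leaving out 1 library, signs turned within these ranges. For YAP2S Y27 against YAP2S they were -0.30 to 0.09 for Igfbp2 and -0.02 to 0.08 for Igf2r, and for MycER OHT against MycER -0.20 to 1.33 for Igfbp6. For Igf1r they were -0.47 to 0.21 for YAP2S OHT Y27 against YAP2S Y27, -0.04 to 0.14 for MycER OHT Y27 against MycER OHT, -0.25 to 0.43 for YAP2S OHT Y27 against YAP2S OHT, -0.55 to 0.13 for YAP2S OHT Y27 against MycER OHT Y27 and -0.22 to 0.46 for the interaction under YAP2S. Igfbp7 ran from -0.17 to 0.20 for YAP2S OHT Y27 against YAP2S OHT and from -0.03 to 0.34 for the interaction under YAP2S, Igfbp6 from -0.25 to 0.15 for YAP2S OHT against MycER OHT, and Igf1 from -0.21 to 0.04 for the interaction of Y27 and population.

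Replicate numbers gave no consistent pairing of the libraries. Over 28 pairs of groups the deviations of same-numbered libraries correlated at -0.49 to 0.59 (median -0.06), with 9 over 0.1. Whether some of the groups were paired cannot be judged from these values. With the replicate block the members tested gave 2 calls for MycER Y27 against MycER and 2 for MycER OHT Y27 against MycER OHT (3 as reported in both), and the other counts did not move. Depth limits Igfbp2, Igfbp3, Igfbp6 and Igf2 most, whose lowest libraries hold 0 to 2 reads.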
